A study of Homo sapiens with 4 samples.

Results

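Small nucleolar RNA host genes are transcribed into long RNAs whose introns carry small nucleolar RNAs (snoRNAs), and most of the genes described here encode no long protein. The set was taken by name: 21 identifiers of the form SNHG followed by a number, with GAS5, ZFAS1, DANCR and EPB41L4A-AS1 added, which gave 25 of 26485 gene identifiers. Levels are in TPM, which scales the reads of a gene by its length and by the library, and 22 of the 25 averaged 1 TPM or more across the 4 libraries. SNHG15, SNHG22 and SNHG24 lay under that level, the nearest being SNHG22 with a mean of 0.556 TPM, whereas the lowest above it was SNHG18 with 7.72 TPM. SNHG15 was at no more than 0.0872 TPM in any library, and SNHG24 was listed at 0 in every library but that of SW1736 with DHT, where it was at 0.101 TPM. The RNA came from SW1736 and 8505C, established lines derived from anaplastic thyroid cancer and all grown in RPMI-1640 with serum, glutamine and gentamicin. Each line was given DHT (here dihydrotanshinone, a plant tanshinone, and not dihydrotestosterone) at 1.5 µM, or the vehicle DMSO, for 24 h. There was 1 library for each line and treatment, so no difference below has a replicate check, an SD or a p-value, and a 2-fold difference is a description of these libraries.

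A host transcript is spliced, and the snoRNAs are cut out of the released introns and assembled with proteins into particles (snoRNPs) that guide the methylation or pseudouridylation of ribosomal and spliceosomal RNA. The spliced exons of many hosts start with a run of pyrimidines, the TOP element that they share with the mRNAs of ribosomal proteins and translation factors and through which translation follows growth signals. Because the reading frames in many spliced hosts are short, ribosomes on them can trigger nonsense-mediated mRNA decay (NMD), and GAS5 (growth arrest specific 5) takes its name from its build-up in cells that stop growing.

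In SW1736, DHT came with levels at least 2-fold higher for 9 of the 22 measured host genes and at least 2-fold lower for 1, beside 3.66% and 15.5% of all 13119 identifiers that averaged 1 TPM or more. The summed level of the 25 host genes was 3027 TPM with DHT and 1530 TPM with DMSO in SW1736. In 8505C, 0 of 22 were 2-fold apart in either direction, beside 0.572% of identifiers higher and 0.32% lower, and the sum was 1899 TPM with DHT and 1789 TPM with DMSO. The host genes thus held 0.303% of all TPM in SW1736 with DHT and 0.153% with DMSO, beside 0.190% and 0.179% in 8505C with DHT and with DMSO.

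The depth was 3.85 Gb of aligned bases in SW1736 with DHT, 3.67 Gb in SW1736 with DMSO, 4.14 Gb in 8505C with DHT and 3.26 Gb in 8505C with DMSO, from the ratio of deposited coverage to FPKM. Read numbers are unknown. Ribosomal protein genes held 22.5% of all TPM in SW1736 with DHT and 17.1% with DMSO, beside 18.4% and 18.3% in 8505C with DHT and with DMSO. Keratins KRT7, KRT8 and KRT18 lay between 403 and 2081 TPM in every library, while CDH1 and EPCAM lay at or under 0.184 TPM. Of the thyroid markers, PAX8 was at 117 TPM with DHT and 87.1 with DMSO in SW1736, FOXE1 at 22.3 and 60.6, NKX2-1 was at 174 with DHT and 69.8 with DMSO in 8505C, and TSHR was listed at 0 in all 4 libraries. Of 5 immune markers 1, CD14, reached a mean of 1 TPM (sums of 3.22 TPM with DHT and 2.08 with DMSO in SW1736, 2.04 and 1.32 in 8505C), and of 3 fibroblast markers 0 did, with sums of 0.298 TPM with DHT and 0.916 with DMSO in SW1736 and 0.387 and 0.272 in 8505C. Of 3 endothelial markers 2 did, CDH5 and TIE1, which were listed at 0 in SW1736, while the 3 summed to 207 TPM with DHT and 171 with DMSO in 8505C. In RNA from a bulk culture, fewer cells of a kind and less RNA per cell cannot be told apart.

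The stretches around the transcription start are shown for the host genes at least 2-fold apart between DHT and DMSO in SW1736 that have a RefSeq window, 8 higher and SNHG4, with SNHG19, SNHG1, SNHG16 and SNHG3 for comparison. They run from 45 bases before the RefSeq start site to 25 bases from it on, on the transcript strand, 5′ to 3′ (RefSeq, GRCh38.p14). Capitals mark TATAA lying 40 to 20 bases upstream and CTTT lying within 10 bases of the start.
SNHG12 (chr1:28581849-28581918, minus strand): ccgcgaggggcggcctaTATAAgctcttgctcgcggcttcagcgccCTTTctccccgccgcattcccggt
ZFAS1 (chr20:49278597-49278666, plus strand): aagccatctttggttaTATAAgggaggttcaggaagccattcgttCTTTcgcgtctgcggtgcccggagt
SNHG5 (chr6:85678709-85678778, minus strand): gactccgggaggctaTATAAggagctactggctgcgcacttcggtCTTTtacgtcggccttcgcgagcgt
SNHG8 (chr4:118278717-118278786, plus strand): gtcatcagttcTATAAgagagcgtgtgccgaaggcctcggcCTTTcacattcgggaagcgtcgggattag
SNHG7 (chr9:136728160-136728229, minus strand): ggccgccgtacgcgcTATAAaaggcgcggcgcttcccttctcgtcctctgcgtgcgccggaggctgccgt
SNHG17 (chr20:38435304-38435373, minus strand): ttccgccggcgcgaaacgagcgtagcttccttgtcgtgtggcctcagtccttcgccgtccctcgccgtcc
EPB41L4A-AS1 (chr5:112160481-112160550, plus strand): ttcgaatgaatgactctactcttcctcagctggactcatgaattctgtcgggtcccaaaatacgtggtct
GAS5 (chr1:173869021-173869090, minus strand): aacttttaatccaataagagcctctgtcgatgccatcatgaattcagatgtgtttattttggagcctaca
SNHG4 (chr5:139274056-139274125, plus strand): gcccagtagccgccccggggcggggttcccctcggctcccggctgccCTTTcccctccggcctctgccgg
SNHG19 (chr16:2155334-2155403, minus strand): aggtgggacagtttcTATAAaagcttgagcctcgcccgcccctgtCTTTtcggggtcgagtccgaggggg
SNHG1 (chr11:62855861-62855930, minus strand): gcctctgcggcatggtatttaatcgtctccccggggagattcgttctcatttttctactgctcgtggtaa
SNHG16 (chr17:76557719-76557788, plus strand): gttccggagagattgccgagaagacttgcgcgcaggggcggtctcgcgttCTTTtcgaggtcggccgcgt
SNHG3 (chr1:28505898-28505967, plus strand): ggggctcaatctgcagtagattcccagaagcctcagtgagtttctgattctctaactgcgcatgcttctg

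A RefSeq window was found for 19 of the 22 measured host genes, and its start site was the one of the deposited tables (hg38) for 12 and within 50 bases of it for 15. For DANCR, GAS5, SNHG4 and ZFAS1 the start sites lay 60, 1058, 349 and 464 bases apart. CTTT near the start was found in 7 of the 19 windows, 36.8%, beside 8.83% of all 27305 promoter windows, 7.70% of the 9494 of measured identifiers and 36 of 67 windows of ribosomal protein genes. TATAA upstream was found in 6 of 19, 31.6%, beside 4.07% of all windows, 2.65% of measured ones and 7 of 67 of ribosomal protein genes. Of the 8 windows of host genes at least 2-fold higher with DHT in SW1736, 4 held CTTT and 5 held TATAA. These include GAS5, with neither motif, and ZFAS1, with both. For these genes the window describes the RefSeq start site and not that of the deposited tables. The motifs were chosen after the sequences were seen, both were read on the transcript strand, and the stretches searched for them do not overlap. Over the whole window of 300 bases and both strands, the E-box CACGTG was found in 1 of 19 windows, that of SNHG7, beside 7.43% of all windows and 10.2% of measured ones. The AP-1 motif TGANTCA was found in 0 of 19, beside 7.76% of all and 4.46% of measured ones, and the cyclic AMP response element TGACGTCA in 0 of 19, beside 1.98% and 3.38%. A match is a run of letters, not a site shown to act, and these 3 searches may overlap each other.

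**Figure D1:**
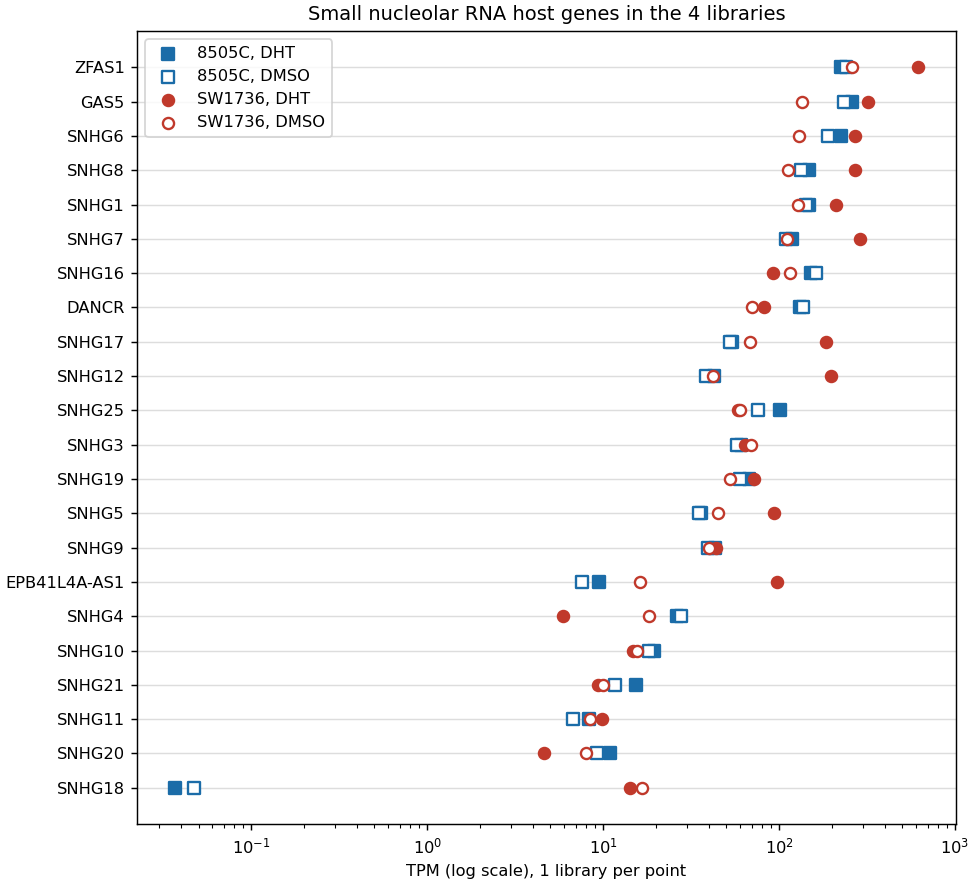
TPM of the 22 measured host genes on a log axis, 1 point per library, with filled symbols for DHT and open symbols for DMSO, squares for 8505C and circles for SW1736. The filled circle of ZFAS1, at 619 TPM, stands apart from its other 3 points between 224 and 258 TPM, whereas the squares of 8505C lie close together for most genes.

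The levels spanned a wide range within each library. In SW1736 with DHT, 8 host genes were at 100 TPM or more, led by ZFAS1, GAS5, SNHG7, SNHG8 and SNHG6, which made up 58.4% of the summed level. In SW1736 with DMSO, 7 were at 100 TPM or more, and ZFAS1, GAS5, SNHG6, SNHG1 and SNHG16 made up 50.0%. The order within 8505C was close to the same with DHT and DMSO, with GAS5, SNHG6, ZFAS1, SNHG16 and SNHG1 making up 53.0% with DHT and 54.2% with DMSO. The mean read depth over exons ranged from 7.95 for SNHG4 to 877 for ZFAS1 in SW1736 with DHT, so the values of SNHG4, SNHG20, SNHG21 and SNHG11 rest on the thinnest coverage in that library.

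The first question was how the host genes of SW1736 differed between DHT and vehicle. EPB41L4A-AS1, an antisense neighbour of the cytoskeletal gene EPB41L4A that holds SNORA13 (chromosome 5, 112160526 to 112162501), was at 97.8 TPM with DHT and 16.2 TPM with DMSO. Its log2 fold on the log2(TPM + 1) scale, which is used throughout and understates the fold of low genes, was 2.52, the highest of the set. In 8505C it was at 9.45 TPM with DHT and 7.55 TPM with DMSO. SNHG12 (chromosome 1, 28578538 to 28581854), a host of 3 H/ACA snoRNAs and SNORD99, was at 197 TPM with DHT and 42.3 TPM with DMSO in SW1736, a log2 fold of 2.20. In 8505C SNHG12 was at 42.4 TPM with DHT and 38.3 TPM with DMSO, so that the SW1736 library with DHT stood apart from the other 3.

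The next genes were closer to each other. SNHG17 (chromosome 20, 38420592 to 38435375), which holds the SNORA71 copies, was at 186 TPM with DHT and 68.0 TPM with DMSO in SW1736, a log2 fold of 1.44, and at 54.0 and 52.9 TPM with DHT and DMSO in 8505C. SNHG7 (chromosome 9, 136724594 to 136728184), a host of SNORA17 and SNORA43, was at 290.2 TPM with DHT and 111 TPM with DMSO in SW1736, a log2 fold of 1.38, and at 118 and 109.5 TPM with DHT and DMSO in 8505C. In both genes the SW1736 library with DHT was the high one and the 3 others lay near each other.

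ZFAS1 starts beside the zinc finger gene ZNFX1 on the opposite strand and holds the SNORD12 family (chromosome 20, 49278178 to 49289258). It was the most abundant host gene of SW1736, at 619 TPM with DHT and 258 TPM with DMSO, a log2 fold of 1.26. In 8505C it was at 224 TPM with DHT and 242 TPM with DMSO, a log2 fold of -0.11, and of 0.35 with coverage, which is not scaled by library, in place of TPM. The median log2 fold of all identifiers in 8505C was 0.31 with coverage. ZNFX1, which shares 42 bases with ZFAS1 at the start, was at 22.3 TPM with DHT and 52.4 TPM with DMSO in SW1736, a log2 fold of -1.20. Whether strand was used in the counting is not given in the sources used here, and the part of the shared bases in either value was not tested.

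GAS5 holds 10 C/D snoRNAs, the largest number among the measured host genes (chromosome 1, 173863901 to 173867987). It was at 319 TPM with DHT and 135 TPM with DMSO in SW1736, a log2 fold of 1.24. In 8505C it was at 258 TPM with DHT and 235 TPM with DMSO, so the 8505C levels lay between those of SW1736. SNHG8, a short host of SNORA24 (chromosome 4, 118278762 to 118279823), was at 269.9 TPM with DHT and 113 TPM with DMSO in SW1736, a log2 fold of 1.25, and at 148 and 133 TPM with DHT and DMSO in 8505C.

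The last of the 9 were nearest to the 2-fold line. SNHG6, the host of SNORD87, was at 269.7 TPM with DHT and 129 TPM with DMSO in SW1736, a log2 fold of 1.05, and at 224 and 189 TPM with DHT and DMSO in 8505C. SNHG5, the host of the SNORD50 pair (chromosome 6, 85677007 to 85678733), was at 93.9 TPM with DHT and 44.8 TPM with DMSO in SW1736, also a log2 fold of 1.05, and at 36.1 and 34.9 TPM with DHT and DMSO in 8505C. SNHG5 was short of 2-fold in SW1736 with a pseudocount of 5 TPM (0.99) and with its snoRNA identifiers added to it (0.85). SNHG1, the host of 8 C/D snoRNAs on chromosome 11 (62851988 to 62855888) and known as the U22 host gene, was next, under 2-fold, at 211 TPM with DHT and 128 TPM with DMSO in SW1736 and at 148 and 142 TPM with DHT and DMSO in 8505C. Its log2 fold in SW1736 was 0.72, against 1.14 when folds were centred on the median identifier and -0.06 with its snoRNA identifiers added.

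SNHG4 was the host gene at least 2-fold lower, at 5.90 TPM with DHT and 18.3 TPM with DMSO in SW1736, a log2 fold of -1.48, and at 26.2 and 27.7 TPM with DHT and DMSO in 8505C. It lies on chromosome 5 (139273752 to 139283184), wholly within the span of the nuclear matrix gene MATR3 on the same strand. MATR3 was at 133 TPM with DHT and 156 TPM with DMSO in SW1736, a log2 fold of -0.23. Reads of the shared exons can be split between them in more than a single way, so the value of SNHG4 is uncertain. The same holds for SNHG3, which lies within the span of RCC1, and for SNHG20, which lies within that of SEC14L1.

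The remaining 11 host genes were within 2-fold in SW1736. SNHG3, the host of the SNORA73 pair that acts in the processing of ribosomal RNA, was at 63.9 TPM with DHT and 69.4 TPM with DMSO in SW1736, and at 60.9 and 57.8 TPM with DHT and DMSO in 8505C. DANCR, a long non-coding RNA named for opposing differentiation of epidermal progenitors, was at 82.2 TPM with DHT and 70.3 TPM with DMSO in SW1736, and at 132 and 137 TPM with DHT and DMSO in 8505C. SNHG16, which holds the SNORD1 copies, was at 91.8 TPM with DHT and 115 TPM with DMSO in SW1736, and at 152 and 162 TPM with DHT and DMSO in 8505C. These abundant hosts thus differed little in the library where ZFAS1 and GAS5 differed most, and DANCR and SNHG16 were higher in both 8505C libraries than in both SW1736 libraries.

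SNHG19, a host of SNORD60, was at 72.0 TPM with DHT and 52.7 TPM with DMSO in SW1736, and at 67.3 and 60.0 TPM with DHT and DMSO in 8505C. SNHG25 was at 58.7 TPM with DHT and 60.3 TPM with DMSO in SW1736. SNHG9, a host of SNORA78, was at 44.0 TPM with DHT and 39.8 TPM with DMSO in SW1736, and at 43.1 and 39.3 TPM with DHT and DMSO in 8505C. All 4 libraries were thus close for SNHG9. SNHG10, which holds the small Cajal body RNA SCARNA13, was at 14.8 TPM with DHT and 15.6 TPM with DMSO in SW1736, and at 19.5 and 18.2 TPM with DHT and DMSO in 8505C. SNHG11 was at 9.78 TPM with DHT and 8.37 TPM with DMSO in SW1736, and at 8.28 and 6.72 TPM with DHT and DMSO in 8505C. SNHG21 was at 9.34 TPM with DHT and 9.99 TPM with DMSO in SW1736. These low-abundance hosts had log2 folds between -0.09 and 0.20 in SW1736. SNHG20, which holds SCARNA16, was at 4.61 TPM with DHT and 7.97 TPM with DMSO in SW1736, a log2 fold of -0.68, and at 10.9 and 9.23 TPM with DHT and DMSO in 8505C.

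As shares, 40.9% of the measured host genes passed 2-fold upwards with DHT in SW1736 and 4.55% downwards. EPB41L4A-AS1 stood above 99.1% of all measured identifiers by its log2 fold, SNHG12 above 98.8%, SNHG5 above 96.5% and SNHG4 above 3.49%. The median log2 fold was 0.33 over the host genes and -0.40 over all identifiers. Among 445 identifiers that RefSeq types as long non-coding RNA, which include host genes, 6.07% were higher and 12.6% lower, with a median of -0.28. Centred on the median identifier with a mean of at least 5 TPM, 10 host genes were 2-fold higher and 1 lower, beside 5.94% and 4.38% of all identifiers on that scale, and the median of the host genes was 0.75. The host transcripts were short, with a median length of 753.5 bases (278 to 2969, GENCODE 29) beside 2415 bases over the measured identifiers, and 17 of 22 lay in the shortest of 3 equal groups by length. In that group 6.19% of identifiers were 2-fold higher and 7.68% lower, with a median of -0.15, beside -0.69 in the longest group. The part of transcript length in the values of the host genes was not tested.

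**Figure D2:**
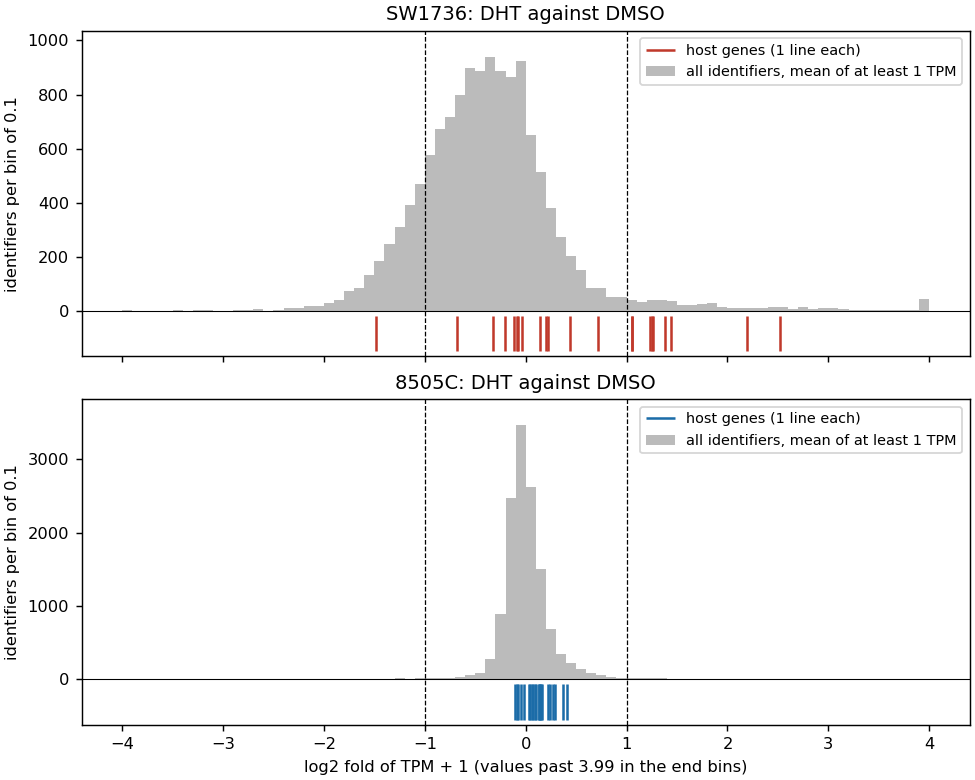
Histograms of the log2 fold of TPM + 1 with DHT against DMSO for the 13119 identifiers averaging 1 TPM or more, SW1736 above and 8505C below, with 1 coloured line under each histogram for every measured host gene and dashed lines at 2-fold. In SW1736, 9 lines lie to the right of the upper dashed line while the histogram leans to the left, and in 8505C all 22 lines lie between -0.11 and 0.41.

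In 8505C, the same dose and time came with small differences. SNHG25, a short host of SNORD104, had the highest log2 fold, 0.41, with 101 TPM with DHT and 75.9 TPM with DMSO. SNHG21 followed, at 15.4 TPM with DHT and 11.7 TPM with DMSO, a log2 fold of 0.37. The lowest was ZFAS1. Of 22 host genes 18 were within 1.2-fold, 17 lay above 0 and 5 below, and the median was 0.12 beside -0.02 over all identifiers. The count of 0 of 22 is close to the background given above. The summed level of the 9 genes that were 2-fold higher in SW1736 was 2343 TPM with DHT and 918 TPM with DMSO in SW1736, and 1114 TPM with DHT and 1042 TPM with DMSO in 8505C. The other 16 host genes summed to 683 TPM with DHT and 613 TPM with DMSO in SW1736. The 9 were chosen by their folds in SW1736, so the split of the SW1736 sums was set by that choice. With 1 library each, how far the lines differ in these sums was not tested.

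The vehicle-treated lines, 8505C set against SW1736, differed in few host genes. SNHG18, a host of SNORD123 on chromosome 5 (9546200 to 9550297), was at 0.0471 TPM in 8505C with DMSO and at 16.6 TPM in SW1736 with DMSO, and with DHT at 0.0365 TPM in 8505C and at 14.2 TPM in SW1736. EPB41L4A-AS1 was at 7.55 TPM in 8505C and 16.2 TPM in SW1736 with DMSO, a log2 fold of -1.01, short of 2-fold with FPKM, centred folds or a pseudocount of 5 TPM. These 2 of 22, and 0 higher, compare with 13.2% of all identifiers at least 2-fold lower and 9.9% higher in 8505C. DANCR was at 137 TPM in 8505C and 70.3 TPM in SW1736, a log2 fold of 0.95, and GAS5 was at 235 TPM in 8505C and 135 TPM in SW1736, a log2 fold of 0.79. ZFAS1, SNHG7 and SNHG9 were nearly level between the vehicle-treated lines, with log2 folds from -0.10 to -0.02.

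With DHT, 8505C was at least 2-fold above SW1736 for 2 host genes and below it for 7, beside 24.2% and 11.4% of all identifiers, and with FPKM or centred folds the split was 1 and 8. The shares of all identifiers were then 15.6% higher and 11.9% lower with FPKM, and 14.5% and 17.1% with centred folds. This comparison shares its libraries with those above. SNHG4 (log2 fold 1.98) and SNHG20 (1.08) were the higher ones. The 7 lower were SNHG18 (-3.88), EPB41L4A-AS1 (-3.24), SNHG12 (-2.19), SNHG17 (-1.76), ZFAS1 (-1.47), SNHG5 (-1.35) and SNHG7 (-1.29).

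The deposited tables also list snoRNAs as identifiers of their own, and 44 with a mean of at least 1 TPM lay inside a host gene on the same strand. They are short, and mRNA libraries are not made to capture mature snoRNAs, so their TPM counts reads over these intronic stretches and cannot be taken as the level of the mature particle. Sequences of SNHG1 and SNHG12 snoRNAs from GENCODE 29 are given as examples of the guide classes. Capitals mark the C box TGATGA and the D box CTGA of C/D snoRNAs and the ACA box of an H/ACA snoRNA. By these exact letters, SNORD22, SNORD26 and SNORD28 of SNHG1 held the D box alone, and SNORA44 of SNHG12 held no box.
SNORD30, SNHG1 (chr11:62853663-62853732, minus strand): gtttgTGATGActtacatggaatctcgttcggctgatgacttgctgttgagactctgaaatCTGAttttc
SNORD27, SNHG1 (chr11:62855012-62855083, minus strand): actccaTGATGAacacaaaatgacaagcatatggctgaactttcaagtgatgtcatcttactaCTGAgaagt
SNORA61, SNHG12 (chr1:28579764-28579893, minus strand): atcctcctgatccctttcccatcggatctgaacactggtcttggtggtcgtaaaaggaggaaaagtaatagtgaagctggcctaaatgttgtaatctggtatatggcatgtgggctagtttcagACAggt

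Several hosts and their snoRNA identifiers lay on opposite sides of 0 in SW1736. SNORD30 was at 11.5 TPM with DHT and 36.1 TPM with DMSO, a log2 fold of -1.57, and SNORD27 at 12.7 and 26.9 TPM, a log2 fold of -1.02, while SNHG1 itself was higher with DHT. The 8 snoRNAs of SNHG1 summed to 146 TPM with DHT and 244 TPM with DMSO, and 7 of the 8 were lower, the exception being SNORD25 at 33.5 TPM with DHT and 18.9 TPM with DMSO. SNORA61 was at 20.5 TPM with DHT and 28.2 TPM with DMSO, and the 4 snoRNAs of SNHG12 summed to 37.0 and 56.6 TPM, in contrast to the host at a log2 fold of 2.20. The 10 snoRNAs of GAS5 summed to 162 TPM with DHT and 172 TPM with DMSO, 5 of them higher and 5 lower. The 3 of ZFAS1 summed to 9.76 TPM with DHT and 20.7 TPM with DMSO. SNORD60 was at 1.64 and 4.30 TPM, while its host SNHG19 had a log2 fold of 0.44. The SNORA73 pair of SNHG3 summed to 4.27 and 17.2 TPM, but SNHG3 itself lay on the same side of 0 (-0.12). In 8505C the sums for SNHG1 were 259 TPM with DHT and 281 TPM with DMSO, and those for GAS5 were 257 and 225 TPM. For 3 of the 9 higher hosts the snoRNA sum differed in the direction of the host. SNORA13 of EPB41L4A-AS1 was at 3.85 TPM with DHT and 2.03 TPM with DMSO in SW1736, and SNORD87 of SNHG6 at 8.53 and 6.60 TPM. In SNHG17, the 4 SNORA71 copies, which resemble each other and can share reads, summed to 48.3 TPM with DHT and 28.1 TPM with DMSO.

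These sets were drawn up after the data were seen. Over all 44, 1 (2.27%) was at least 2-fold higher with DHT in SW1736 and 12 (27.3%) were at least 2-fold lower, with a median log2 fold of -0.40. Of all identifiers, 3.66% were higher and 15.5% lower, with the same median of -0.40. For the 25 inside the 9 higher host genes the counts were 1 higher and 4 lower, with a median of -0.04. Of 171 snoRNA identifiers outside the host genes, 57 passed 2-fold upwards and 16 downwards, with a median of 0.42. In 8505C, 4 of the 44 were 2-fold higher and 1 lower, with a median of 0.23, beside 9 and 5 of the 171 elsewhere. The shares of all identifiers in 8505C were 0.572% higher and 0.32% lower. With each host's snoRNA identifiers added to it, 7 host genes instead of 9 were 2-fold higher in SW1736, as GAS5 (0.65) and SNHG5 dropped out and SNHG12 stood at 1.24.

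**Figure D3:**
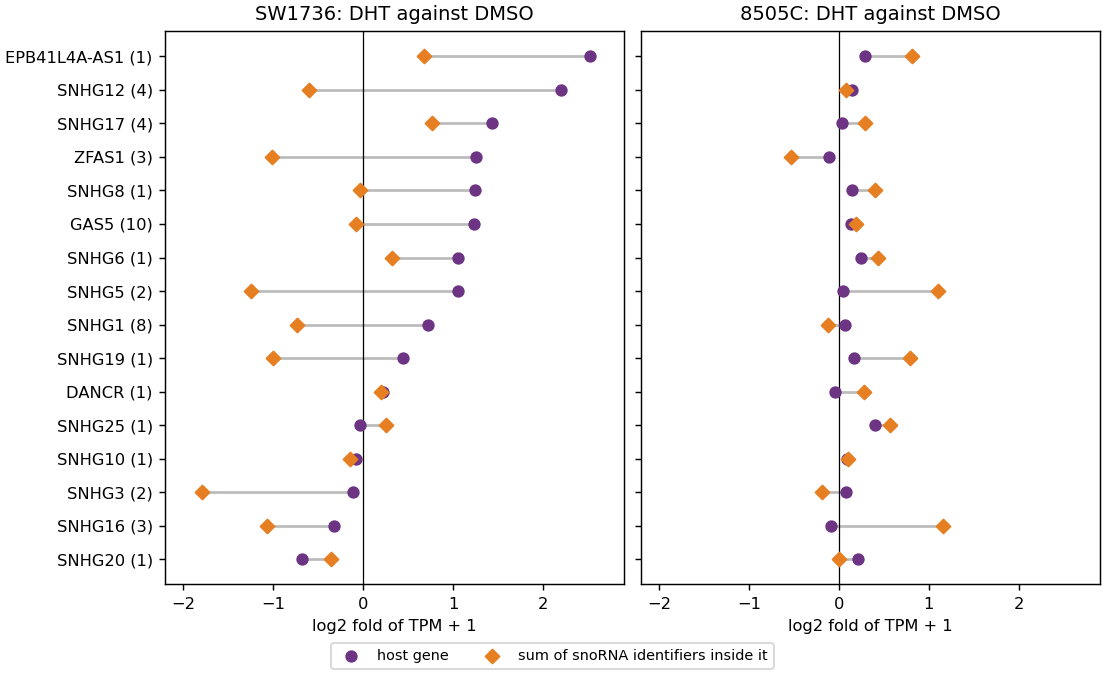
Log2 fold of TPM + 1 with DHT against DMSO for each measured host gene (purple circle) and for the sum of the snoRNA identifiers inside it (orange diamond), SW1736 on the left and 8505C on the right, for hosts with a snoRNA at a mean of at least 1 TPM and with the number of snoRNAs in brackets. In SW1736 the diamonds of SNHG12, ZFAS1, SNHG5, SNHG1 and SNHG19 lie left of 0 while their circles lie right of it. Those of GAS5 and SNHG8 lie just left of 0.

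Genes that share features with these hosts were set beside them, and the lists were drawn up with earlier results of these data known. Of 83 measured cytosolic ribosomal protein genes, most are TOP genes and many also hold snoRNAs. With DHT in SW1736, 1 of the 83 was at least 2-fold higher and 0 lower, beside 3.66% and 15.5% of all identifiers. Their median was 0.38 and 78 of 83 lay above 0, whereas 14 of the 22 host genes did. The 2-fold higher gene was RPL22L1, at 56.8 TPM with DHT and 26.9 TPM with DMSO. RPL28 (0.64) and RPS27 (0.57) followed, and RPL7L1 (-0.83) was lowest, before RPL15 (-0.62). The list was taken by name and so includes genes named as like another, RPL22L1 and RPL7L1 among them. The median of this list was thus close to that of the host genes, whereas the spread of the host genes, from -1.48 to 2.52, was wider. Of 22 translation factors and other mRNAs with a TOP element, 0 were 2-fold apart, with a median of 0.22, among them EEF1B2 at 0.57 and EIF2S3 at -0.35. VIM (0.44) is in that list as well.

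Protein-coding genes can host snoRNAs too. Of 97 measured coding genes that hold a snoRNA on the same strand and are not in the list of ribosomal protein genes, among them the RPL17 readthrough RPL17-C18orf32 (-0.78), 1 was at least 2-fold higher with DHT in SW1736 and 23 lower, with a median of -0.49. EIF4A2, an RNA helicase of translation initiation, was the higher one, at 691 TPM with DHT and 326 TPM with DMSO. CCNB1IP1 (0.68) followed, and the lowest were ATP2B4 (-1.89), VPS13D (-1.78) and GTF2A1 (-1.66). Adding the ribosomal protein genes that hold snoRNAs gave 125 coding hosts, with 1 higher and 23 lower. These are 0.8% and 18.4%, beside 3.66% and 15.5% of all identifiers. In 8505C, 0 of the 125 were 2-fold apart.

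Of 18 genes for snoRNP proteins and their assembly, 0 were at least 2-fold higher with DHT in SW1736 and 3 lower, with a median of -0.33. The lower ones were the assembly factor ZNHIT6 (-1.29), the cap methylase TGS1 (-1.14) and the ATPase RUVBL1 (-1.04). The methyltransferase FBL of C/D particles was highest, at 0.38. Of 19 NMD factors, 0 were higher and 2 lower, SMG1 (-1.24), the kinase of UPF1, and NBAS (-1.02), with a median of -0.34. EIF4A3, of the exon junction complex, was highest, at 233 TPM with DHT and 162 TPM with DMSO. Both medians lay near the -0.40 of all identifiers. The shares at least 2-fold lower, 16.7% of the snoRNP genes and 10.5% of the NMD factors, compare with 15.5% of all identifiers. In 8505C, 0 members of these lists were 2-fold apart.

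**Figure D4:**
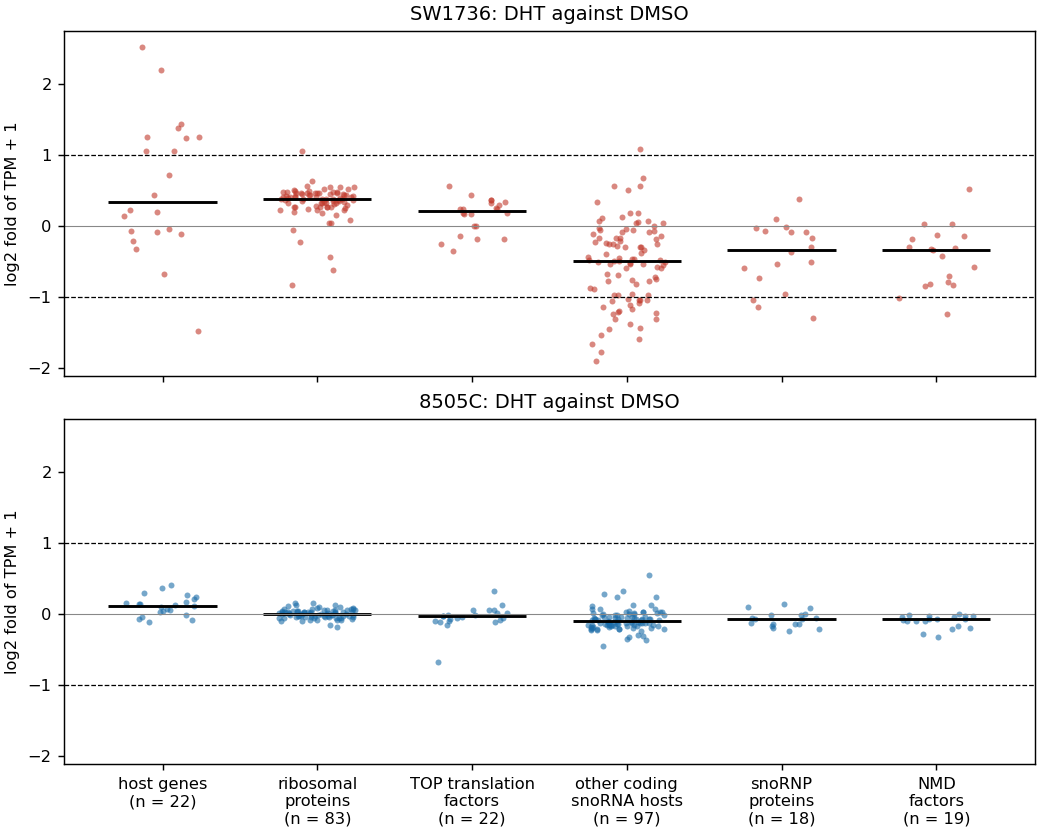
Log2 fold of TPM + 1 with DHT against DMSO, 1 point per gene and a black bar at the median, for the host genes and 5 comparison lists, SW1736 above and 8505C below, with dashed lines at 2-fold. In SW1736 the host genes reach 2.52, while the bars of ribosomal proteins (0.38) and TOP factors (0.22) lie above 0 and the other 3 lie below it.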

How the data were processed

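Total RNA of both lines was made into libraries with the Universal Plus mRNA-Seq kit, per the labels' protocols. The submitters' processing notes name hg38, StringTie and bcl2fastq 2.20. The sources used here do not give the aligner, annotation or strand setting. The authors deposited, per the file headers, TPM, FPKM and mean coverage per gene and locus. TPM sums to 1000000 in each library, so a gain of abundant mRNAs lowers all others.

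TPM was summed per identifier (0 of 25 host genes had several rows in a file). Differences are of log2(TPM + 1), computed in Python 3.11.15 with pandas 2.3.3 and numpy 2.4.6, and the counting was tested on simulated data. With 1 library per group no test was made, and a fit pooling the lines was not run. RefSeq gave the gene type of 12118 of 13119 measured identifiers. A snoRNA was assigned to a host when it lay inside it on the same strand. All measured host genes are named, with at most 3 genes from each end of other lists by their SW1736 fold. The readthrough RPL17-C18orf32 is named outside that rule. The members and lists were chosen with earlier results of these data known. Alternatives were other pseudocounts, filters, units, scalings and a 1.5-fold line.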

Additional observations from a re-analysis of the deposited data

Results flagged for a closer look

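ZFAS1 was at least 2-fold higher with DHT in SW1736 and on the other side of 0 in 8505C, with log2 folds of 1.26 in SW1736 and -0.11 in 8505C. Whether the lines differ was not tested, as each fold rests on 1 library per treatment, and the 8505C fold was 0.35 with coverage in place of TPM. By coverage, which is not scaled by library, the median log2 fold of all identifiers in 8505C was 0.31. DANCR, SNHG3, SNHG10, SNHG20, SNHG21 and SNHG25 also had folds of opposite sign in the lines, all within 2-fold in both.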

How the results depend on the processing

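Of 148 counts, medians and sums recomputed under 11 alternatives, 139 stayed within 1.5 times of the value given (0.58 on the log2 scale). The filter at a mean of 5 TPM and the limit to identifiers with a single row could not move any of them. Every measured host gene averaged more than 5 TPM and had a single row. With a pseudocount of 5 TPM, with FPKM and with centred folds, 8505C with DMSO had 1 host gene lower than SW1736, and 8505C with DHT had 1 higher. In the same order, 7.23%, 10.5% and 12.2% of all identifiers were lower with DMSO, and 13.8%, 15.6% and 14.5% higher with DHT. At 1.5-fold, 2 host genes were lower with DHT in SW1736, 2 were higher in 8505C with DMSO and 6 higher in 8505C with DHT, beside 37.7%, 18.7% and 40.1% of all identifiers. The number of host genes at least 2-fold higher with DHT in SW1736 lay between 7 and 10, beside 2.35% to 5.94% of all identifiers. The median of the host genes between the vehicle-treated lines was 0.17, and -0.06 with coverage, which is not scaled by library. Over all identifiers the same median was -0.07, and -0.22 with coverage. Between the DHT-treated lines the median of the host genes was -0.24, and 0.02 with snoRNAs added. The causes were not tested. The labels give no replicate numbers, and a fit of treatment with line as a block, which the 4 libraries allow with 1 residual degree of freedom, was not run. Without any 1 library, its line has no comparison of treatments left. With read numbers unknown, no counting interval can be given for SNHG4, SNHG20 or the snoRNA identifiers.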

Other observations

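The MYC network and the regulators of TOP translation were read beside the host genes. MYC, a transcription factor of growth and ribosome genes, was at 614 TPM with DHT and 125 TPM with DMSO in SW1736, and at 208 TPM with DHT and 213 TPM with DMSO in 8505C. MYCL (2.36) and MXD1 (2.16), an antagonist of MYC, also had log2 folds over 1 in SW1736, while MGA (-1.91) and MNT (-1.50) had folds under -1, which made 3 of the 9 measured genes 2-fold higher and 2 of them lower. Of 10 regulators of TOP translation, 0 were 2-fold higher with DHT in SW1736 and 2 were lower, EIF4EBP2 (-1.49) and RPTOR (-1.12), with a median of -0.86. Both lists are short, and over all identifiers 3.66% were higher and 15.5% lower in SW1736, with a median of -0.40. MTOR was at 13.6 TPM with DHT and 27.7 TPM with DMSO. In 8505C, 0 members of either list were 2-fold apart.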
